A study of Homo sapiens with 2 samples.

Results

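The nuclear genes for subunits of respiratory chain complexes II, III and IV, for cytochrome c and for the ATP synthase were followed in single cells of MDA-MB-231 mammospheres. MDA-MB-231, an established cell line, derives from triple-negative breast cancer and is mesenchymal. The genes were taken from a list of 39 symbols, of which 37 were read in a table of 19826 genes, and SDHD and UQCR11 were not analysed here. The symbols are the older ones of the counts, such as ATP5A1 for the gene now called ATP5F1A. One library came from cells that grew for 30 days attached to the dish in DMEM of high glucose with 2 mM metformin and then spent 10 days as mammospheres, spheres that float above a low-attachment surface. The other came from cells handled the same way with 0 mM metformin. Both were made from spheres taken apart with trypsin and EDTA, and each dose had 1 library. No difference between the doses therefore has a replicate check, and the design allows neither a test nor a p-value. Nothing in the labels says how many cultures went into a library. The comparison asks how the transcriptome of the spheres differed after adaptation to metformin.

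Complex II passes electrons from succinate to ubiquinone, complex III passes them on to cytochrome c, and complex IV hands them to oxygen. Complexes III and IV pump protons across the inner mitochondrial membrane, complex II does not, and the ATP synthase lets the protons flow back to make ATP. Metformin is a biguanide known to inhibit complex I, which feeds the same chain. Complex II is built from nuclear genes alone, whereas the others described here also hold subunits made from mitochondrial DNA. The factors NRF1, GABP, YY1 and ERRalpha are known to act on many nuclear genes of the chain.

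The 2 mM library held 991 cells with 3264343 unique molecular identifiers (UMIs, tags that mark single captured transcripts), and the 0 mM library 1000 cells with 4403045. The median cell had 2509 UMIs at 2 mM and 3386 at 0 mM. No cell barcode occurred in both libraries. Some barcodes of a library lay 1 base apart, and merging these left 891 of 1000 barcodes at 2 mM and 931 of 1000 at 0 mM. Of the 2000 barcodes, 191 held an N. Some cells may therefore be counted under more than 1 barcode, which bears on cell numbers, depth and values per cell. With such barcodes merged, the log2 ratio between the doses shifted by at most 0.002 for any of the 37 genes. The 37 genes took 55309 UMIs at 2 mM and 69753 at 0 mM, which is 1.69% and 1.58% of the library. Of markers of the line, the 6 mesenchymal genes had 12913 UMIs at 2 mM and 25887 at 0 mM, of which vimentin (VIM) had 5210 and 14402. FN1 of this list went the other way, with 1639 at 2 mM and 1150 at 0 mM, and SPARC had only 3 and 1. The 6 epithelial genes had 3675 UMIs at 2 mM and 4296 at 0 mM, from 1529 and 1842 for KRT18 to 0 and 2 for CDH1, the epithelial cadherin, with EPCAM at 139 and 126. Of other cell types, the leukocyte list had 58 UMIs at 2 mM and 36 at 0 mM over its 4 genes analysed. CD14 had 52 and 20 of these, and the defining leukocyte gene PTPRC 1 and 0. The 6 fibroblast genes had 22 and 17 UMIs, and KDR, the endothelial gene analysed, had 12 and 4.

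Levels are counts scaled to a library total of 1000000 UMIs (CPM). Each UMI stands for 1 captured transcript, so levels were not divided by transcript length, and whether genes were captured equally well was not tested. Each level and ratio has a 95% counting interval, which covers counting error only. Intervals treat UMIs as independent draws, leave out the spread between cells and cultures, and are therefore too narrow. A gene was called higher or lower where its CPM at 2 mM and at 0 mM were at least 1.5-fold apart, and the same threshold was used between groups of cells of 1 library. All 37 genes passed the minimum of 50 CPM in either library and 50 UMIs over both, as did 4105 genes in all.

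The 37 genes together stood at 16943 CPM at 2 mM against 15842 CPM at 0 mM, a ratio of 1.07 (1.06 to 1.08). Their ratios ran from 0.755 for SDHC to 1.47 for UQCRFS1. None of the 37 was called higher, against 5.04% of the 4105 genes, and none was called lower, against 3.31%. A ratio above 1 was found for 21 of 37, against 52.6% of all genes. The counting interval lay wholly above 1 for 15 genes, against 27.1%, and wholly below 1 for 9, against 23.4%. A counting interval narrows as the count rises, and most members stood well above the minimum of 50 CPM. The shares of all genes, here and for the calls, were not matched for level. The part of level in these differences was not tested. The median log2 ratio was 0.08 (-0.07 to 0.21) over the 37 genes and 0.02 over all genes. This interval is no counting interval. It comes from the order of the 37 ratios and treats genes of the same 2 libraries as independent, so it does not measure the spread between cultures. With TMM factors, which scale the libraries by their typical gene in place of their totals, the median of the 37 was -0.01 and that of all genes -0.07, and 16 of 37 had a ratio above 1. At a ratio of at least 5 to 4, 4 members were higher, against 16.7% of all genes, and 1 was lower, against 12.8%. The order of the 37 levels was close between the doses (Spearman's rho 0.969 over 37 genes, a description, since all points of a dose share 1 library).

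**Figure D1:**
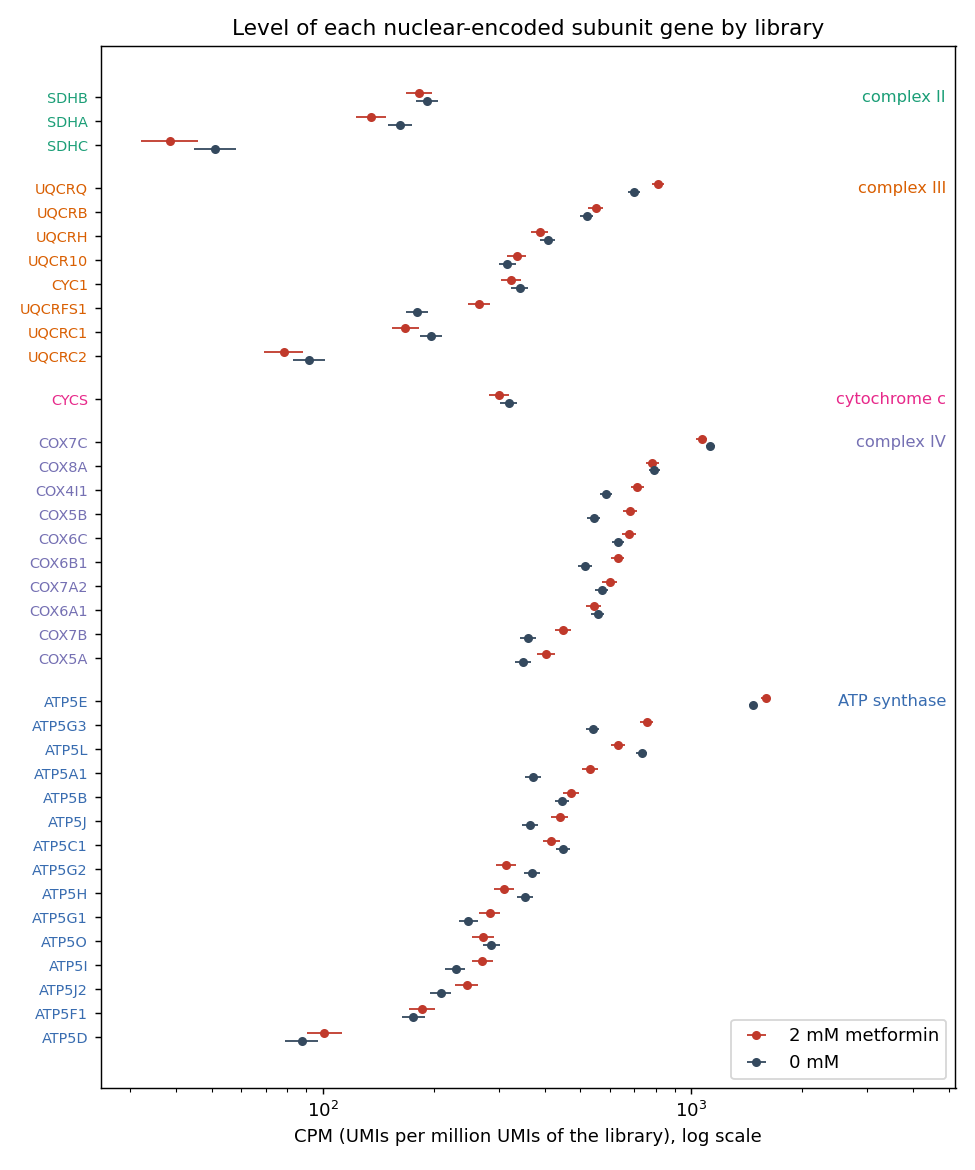
Level of each of the 37 nuclear-encoded subunit genes in CPM on a log axis, grouped by complex and sorted within it by the level at 2 mM; red points are the 2 mM library, dark points the 0 mM library, and bars are 95% counting intervals. ATP5E stands highest at 1591 CPM at 2 mM against 1469 CPM at 0 mM, and SDHC lowest at 38.6 and 51.1 CPM.

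Complex II had the lowest sum, at 356 CPM at 2 mM against 405 CPM at 0 mM. It runs over 3 genes, without SDHD, against 8 for complex III, 10 for complex IV and 15 for the ATP synthase. The ratio of this sum was 0.878 (0.815 to 0.946), and all 3 subunit genes analysed had ratios below 1. SDHB, the iron-sulfur subunit, was the highest of them, with 182 CPM at 2 mM against 192 CPM at 0 mM, and its intervals overlapped between the doses. SDHA, the flavoprotein that oxidises succinate, had 135 CPM at 2 mM against 162 CPM at 0 mM, a ratio of 0.832 (0.737 to 0.938). SDHC, a membrane anchor that helps to bind ubiquinone, had 126 UMIs at 2 mM and 225 at 0 mM, or 38.6 and 51.1 CPM. Its ratio of 0.755 (0.602 to 0.944) was the lowest of the 37, and its intervals of the level overlapped slightly between the doses. The order SDHB, SDHA, SDHC held in both libraries with no overlap between neighbours. With every cell thinned to 1000 UMIs, a setting that also leaves out shallow cells and weights cells equally, SDHC and SDHB had log2 ratios of 0.35 (-0.34 to 1.05) and 0.05 (-0.27 to 0.38), whose intervals included 0. SDHA stayed below 1 in every setting tried.

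Complex III summed to 2920 CPM at 2 mM against 2754 CPM at 0 mM, a ratio of 1.06 (1.03 to 1.09) that came to a log2 value of -0.002 with TMM factors. Its 8 genes split, with 4 ratios above 1 and 4 below. UQCRFS1, the Rieske iron-sulfur protein that takes electrons from ubiquinol, had 866 UMIs at 2 mM and 794 at 0 mM from the smaller and the larger library. This is 265 CPM (248 to 284) at 2 mM against 180 CPM (168 to 193) at 0 mM, so the doses lay apart. Its ratio of 1.47 (1.33 to 1.62) was the highest of the 37 genes and just under the threshold. It passed 1.5-fold with the deepest 5% of barcodes left out, with every cell weighted equally, and in thinned cells, where its log2 ratio was 0.79 against 0.56.

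The large core proteins of complex III, which form its matrix side, lay on the other side of 1. UQCRC1 had 168 CPM at 2 mM against 197 CPM at 0 mM, a ratio of 0.852 (0.764 to 0.949). UQCRC2 was the lowest gene of the complex, at 78.4 and 92.0 CPM, with a ratio of 0.853 (0.726 to 0.999). Its log2 ratio was 0.07 in thinned cells. UQCRQ, a small ubiquinone-binding subunit, was the highest of the complex at 811 CPM at 2 mM against 698 CPM at 0 mM, a ratio of 1.16 (1.10 to 1.22). Small subunits UQCRB and UQCR10 had ratios of 1.06 each, and the hinge protein UQCRH and cytochrome c1 (CYC1) of 0.95 and 0.948, and all 4 intervals included 1. In the order of levels UQCR10 and CYC1 overlapped in both libraries, with UQCR10 above at 2 mM and CYC1 above at 0 mM. UQCRFS1 stood above UQCRC1 at 2 mM without overlap, whereas at 0 mM UQCRC1 stood above UQCRFS1 with overlapping intervals. CYCS, the soluble cytochrome c that shuttles between complexes III and IV and starts apoptosis when released, had 301 CPM at 2 mM against 319 CPM at 0 mM, a ratio of 0.943 (0.868 to 1.02).

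Complex IV summed to 6546 CPM at 2 mM against 6029 CPM at 0 mM, a ratio of 1.09 (1.07 to 1.11), and 7 of its 10 genes had ratios above 1. COX5B, a zinc-binding subunit, had the highest ratio, 1.26 (1.19 to 1.33), with 682 CPM at 2 mM against 543 CPM at 0 mM. COX7B followed with a log2 ratio of 0.32, from 448 CPM at 2 mM against 359.5 CPM at 0 mM, then COX6B1, which faces the intermembrane space, with a ratio of 1.23 (1.15 to 1.30), and COX4I1, a regulatory subunit that helps to build the complex, with 1.22 (1.15 to 1.29). For each of these 4 genes the intervals of the level lay apart between the doses. COX7C, the most abundant gene of the complex, had 1066 CPM at 2 mM against 1124 CPM at 0 mM and the lowest ratio, 0.949 (0.908 to 0.991). COX8A, second in level, had 783 and 793 CPM, and COX6A1 544 and 557 CPM, with intervals of the ratio that included 1. COX5A was the lowest in level, at 403 CPM at 2 mM against 349 CPM at 0 mM, a ratio of 1.15 (1.07 to 1.24). COX6C had a ratio of 1.07 (1.01 to 1.13), and COX7A2, the widely used form of its subunit, of 1.05 (0.990 to 1.11). At 2 mM the neighbours from COX4I1 through COX5B, COX6C and COX6B1 to COX7A2 overlapped one after another. At 0 mM the same held from COX4I1 through COX7A2, COX6A1 and COX5B to COX6B1, and for COX7B with COX5A.

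The ATP synthase summed to 6820 CPM at 2 mM against 6335 CPM at 0 mM, a ratio of 1.08 (1.06 to 1.10), with 10 of its 15 genes above 1. In the catalytic head, ATP5A1 for the alpha subunit had 531 CPM (506 to 556) at 2 mM against 372 CPM (354 to 390) at 0 mM. Its ratio of 1.43 (1.33 to 1.53) contrasted with 1.06 (0.988 to 1.13) for ATP5B, the beta subunit that carries the catalytic sites and pairs with alpha in equal numbers. The level of ATP5B was 472 CPM at 2 mM against 447 CPM at 0 mM, so the alpha gene stood above the beta gene at 2 mM and below it at 0 mM, without overlap in either library. In the central shaft, ATP5C1 (gamma) had a ratio of 0.928 (0.866 to 0.995), ATP5D (delta) of 1.15 (0.993 to 1.34) and ATP5E (epsilon) of 1.08 (1.04 to 1.12). ATP5E was the most abundant of the 37 genes, at rank 65 of all genes at 2 mM and rank 80 at 0 mM, and ATP5D the lowest of the ATP synthase, at 101 and 87.7 CPM.

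The peripheral stalk, which holds the head still, was mixed as well. ATP5J had a ratio of 1.20 (1.12 to 1.29), ATP5F1 of 1.06 (0.947 to 1.17), ATP5O of 0.949 (0.870 to 1.04) and ATP5H of 0.879 (0.811 to 0.952). Among the small membrane subunits that help to join synthases into dimers, ATP5I and ATP5J2 had ratios of 1.18 each, with intervals above 1. ATP5L stood apart from them at 0.860 (0.813 to 0.909), with 630 CPM at 2 mM against 733 CPM at 0 mM. The similar symbols ATP5J and ATP5J2 belong to different subunits, at 440 and 246 CPM at 2 mM and 365 and 209 CPM at 0 mM.

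**Figure D2:**
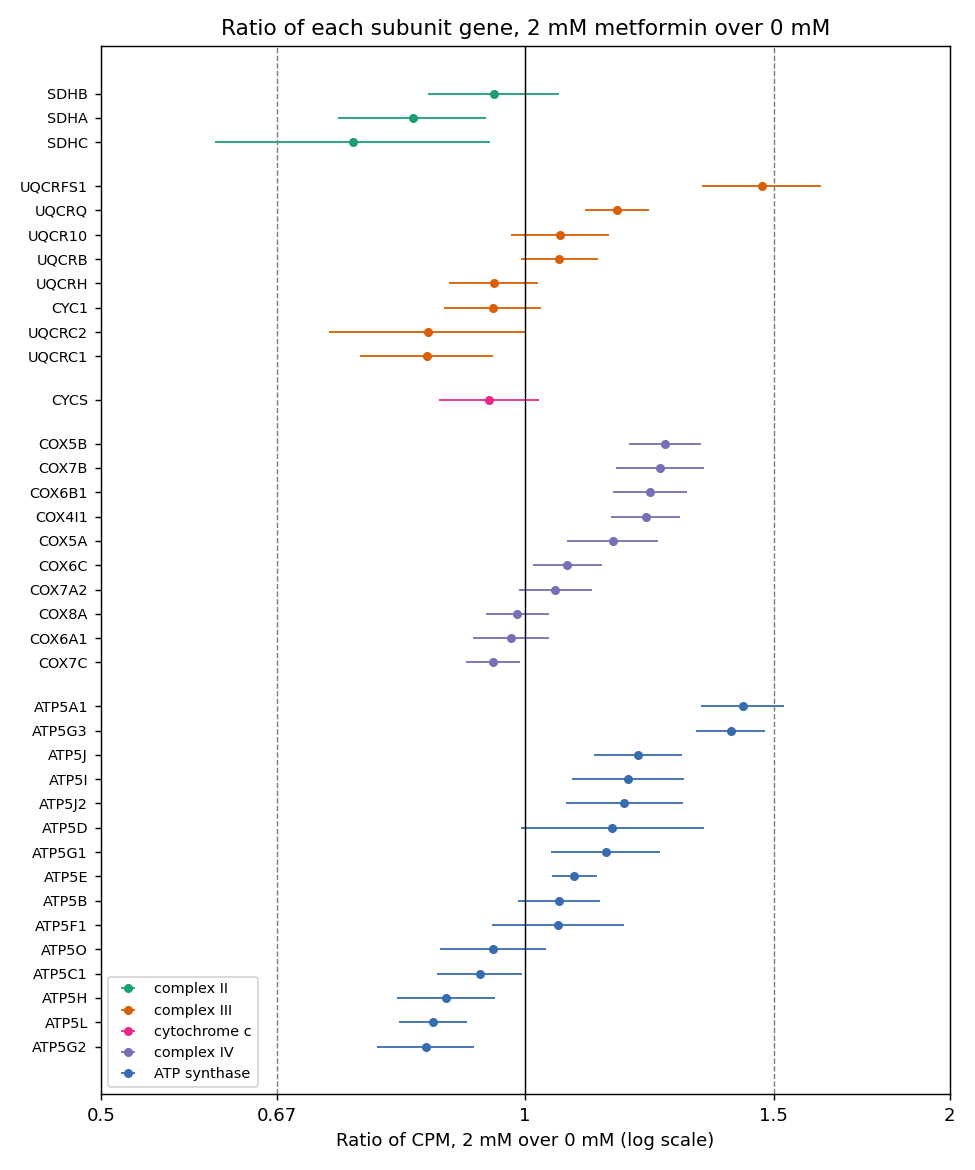
Ratio of CPM at 2 mM over 0 mM for each of the 37 genes on a log axis, coloured by complex, with 95% counting intervals; the solid line is a ratio of 1 and the dashed lines are 1.5-fold either way. UQCRFS1 at 1.47, ATP5A1 at 1.43 and ATP5G3 at 1.40 stand furthest to the right, and SDHC at 0.755 furthest to the left.

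Subunit c forms the proton-driven ring of the ATP synthase, and the paralogues ATP5G1, ATP5G2 and ATP5G3 are known to encode the same mature protein behind different import sequences. Their sum was 1352 CPM at 2 mM against 1158 CPM at 0 mM, a ratio of 1.17 (1.12 to 1.22). ATP5G3 had 755 CPM (726 to 786) at 2 mM against 540 CPM (519 to 562) at 0 mM, a ratio of 1.40 (1.32 to 1.48). ATP5G2 went the other way, with 314 CPM (295 to 334) at 2 mM against 369 CPM (351 to 387) at 0 mM, a ratio of 0.850 (0.785 to 0.920). ATP5G1 had 283 CPM at 2 mM against 248 CPM at 0 mM, a log2 ratio of 0.19 with an interval wholly above 0. ATP5G3 thus gave 55.9% (54.4 to 57.3) of the subunit c UMIs at 2 mM and 46.7% (45.3 to 48.0) at 0 mM, by exact binomial intervals. ATP5G2 gave 23.2% (22.0 to 24.5) at 2 mM and 31.9% (30.6 to 33.2) at 0 mM, and ATP5G1 21.0% and 21.5%. The share of ATP5G3 was higher and that of ATP5G2 lower at 2 mM in each of the 5 cell clusters that held at least 50 cells of both libraries. These clusters are parts of the same libraries and no replicates. In thinned cells the log2 ratio of ATP5G2 was 0.06 against -0.23, and that of ATP5G3 0.66 against 0.48. Over the last 75 codons the coding sequences of ATP5G1 and ATP5G2 were 88.9% identical, and each was 81.3% identical to ATP5G3, so reads from that stretch could be split between them.

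**Figure D3:**
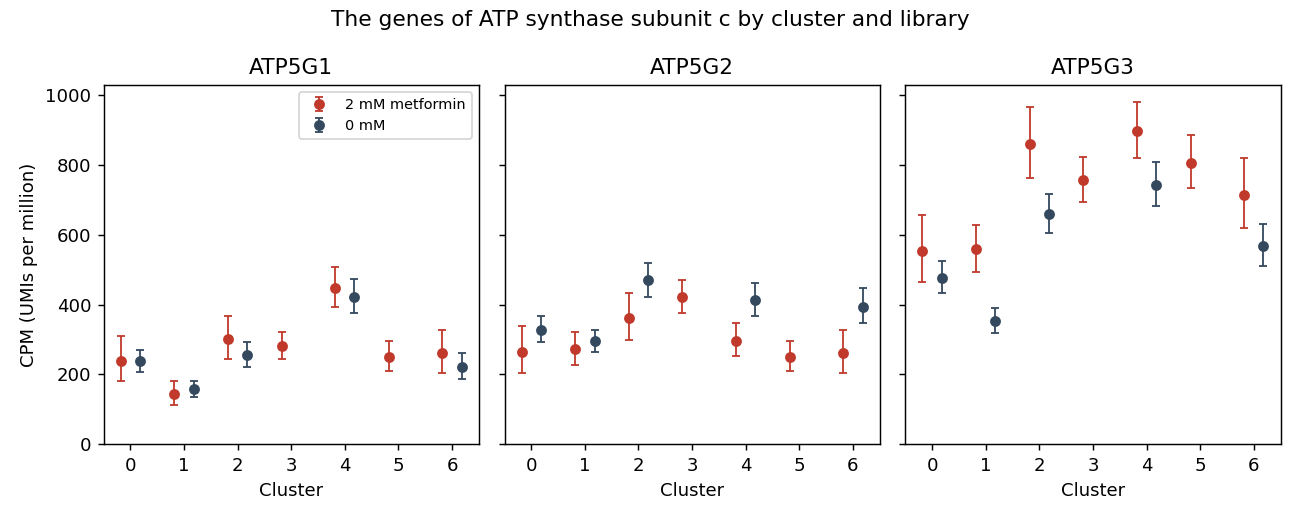
CPM of ATP5G1, ATP5G2 and ATP5G3 in 7 clusters of cells, red for 2 mM and dark for 0 mM, with 95% counting intervals; clusters 3 and 5 have points for 2 mM only. ATP5G3 is higher and ATP5G2 lower at 2 mM in every cluster with both points. The interval of the ratio included 1 for ATP5G3 in cluster 0 and for ATP5G2 in clusters 0 and 1. ATP5G1 peaks in the S-like cluster 4 at 447 CPM at 2 mM against 422 CPM at 0 mM.

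Promoter sequences of 29 of the 37 genes were matched in RefSeq (GRCh38.p14, whereas the counts were made on hg19), each from 250 bases before the gene's start to 50 bases from it on. The letters of 4 factors known to act on these genes were searched on both strands. The ETS letters CCGGAAG, bound by GABP, occurred in 12 of the 29, or 41.4%, against 10.7% of 27305 promoters of that length. The YY1 letters AAGATGGCG occurred in 3, or 10.3%, against 1.85%. The NRF1 letters GCGCATGCG occurred in 5 (COX6A1, ATP5C1, ATP5G2, ATP5I and ATP5J), or 17.2%, against 2.10%. This count depends on the letters: with 1 more C at the 3′ end they occurred in 1, that of ATP5C1, or 3.45%, against 1.36%. The ERR letters TCAAGGTCA occurred in 0, against 0.359%. No matches overlap in the sequences given here. A ratio above 1 at 2 mM over 0 mM was found for 6 of the 12 genes with the ETS letters and 9 of the 17 without them. Printed here, as examples of promoters with more than 1 match, are those of SDHB (chr1:17053983-17054282, minus strand), COX5B (chr2:97645812-97646111, plus strand) and ATP5J (now ATP5PF, chr21:25735005-25735304, minus strand). UQCRFS1 (chr19:29213102-29213401, minus strand) is given because it had the highest ratio, and its window held no match. Capitals mark the ETS, YY1 and NRF1 letters.
SDHB: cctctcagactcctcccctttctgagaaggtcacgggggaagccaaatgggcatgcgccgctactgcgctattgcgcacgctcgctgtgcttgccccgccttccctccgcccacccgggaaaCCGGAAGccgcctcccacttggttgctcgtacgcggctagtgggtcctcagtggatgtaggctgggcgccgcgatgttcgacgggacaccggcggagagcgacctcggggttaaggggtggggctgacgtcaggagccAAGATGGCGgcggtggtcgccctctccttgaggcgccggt
COX5B: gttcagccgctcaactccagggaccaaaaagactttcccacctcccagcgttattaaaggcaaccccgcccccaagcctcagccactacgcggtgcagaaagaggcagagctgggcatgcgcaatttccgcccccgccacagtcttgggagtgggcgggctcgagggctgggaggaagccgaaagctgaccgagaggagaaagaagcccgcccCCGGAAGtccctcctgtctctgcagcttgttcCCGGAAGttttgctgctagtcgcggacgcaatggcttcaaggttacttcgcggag
ATP5J: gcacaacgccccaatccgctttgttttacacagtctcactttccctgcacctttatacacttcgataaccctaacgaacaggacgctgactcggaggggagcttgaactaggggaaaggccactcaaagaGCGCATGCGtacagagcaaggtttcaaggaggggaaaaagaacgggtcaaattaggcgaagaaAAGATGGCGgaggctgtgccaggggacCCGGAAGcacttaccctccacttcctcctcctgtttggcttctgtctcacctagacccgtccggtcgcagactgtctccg
UQCRFS1: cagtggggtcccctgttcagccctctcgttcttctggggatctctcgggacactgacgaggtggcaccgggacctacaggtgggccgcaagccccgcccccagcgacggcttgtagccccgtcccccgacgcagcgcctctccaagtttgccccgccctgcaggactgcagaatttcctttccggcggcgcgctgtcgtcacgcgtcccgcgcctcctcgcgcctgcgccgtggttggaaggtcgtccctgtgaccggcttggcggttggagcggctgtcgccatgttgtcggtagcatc

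In cells thinned to 1000 UMIs, ATP5E was found in 74.4% (71.2 to 77.4) of the 800 cells of the 2 mM library, against 68.0% (64.9 to 71.0) of the 944 of the 0 mM library, and SDHC in 4.75% and 3.71%. Without thinning, ATP5E was found in 86.9% of cells at 2 mM and 88.3% at 0 mM, and SDHC in 10.9% and 18.2%, so the order of the doses differed between thinned and unthinned cells. All cells are of 1 line that uses these genes, so no cell type without them could give a background share. UQCRFS1 was found in 24.3% (21.3 to 27.4) of thinned cells at 2 mM against 14.6% (12.4 to 17.0) at 0 mM. ATP5G3 was found in 50.6% (47.1 to 54.1) of thinned cells at 2 mM against 36.7% (33.6 to 39.8) at 0 mM. Thinning left out 191 of the 2 mM cells and 56 of the 0 mM cells as too shallow.

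Taken singly, the genes varied little beyond counting between thinned cells, whereas their sum varied more than counting alone gives. The variance of thinned counts over their mean, which is near 1 for counting noise alone, had a median of 1.09 over the members at 2 mM and 1.11 at 0 mM, against 1.05 at both doses for genes of the same range of level. It was highest for ATP5E, at 1.34 and 1.37. Summed over all 37 genes a thinned cell had 16.6 ± 6.0 UMIs at 2 mM and 15 ± 6.35 at 0 mM (SD over 800 and 944 cells), and the variance over mean was 2.18 and 2.69. Across cells, complex IV and ATP synthase sums had a Pearson r of 0.303 at 2 mM and 0.412 at 0 mM, and complexes III and IV 0.227 and 0.281. The 37-gene sum had an r of 0.414 at 2 mM and 0.449 at 0 mM with nuclear complex I genes, and 0.346 and 0.454 with ribosomal protein genes. With the mitochondrially encoded partners r was 0.0840 and 0.125. These are descriptions over cells of 1 library each, with every cell at the same thinned total.

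Cell states were set as ranges of a list's count in thinned cells, at 3 or more UMIs, and not as types. The G2/M state held 190 cells at 2 mM and 302 at 0 mM, the S state 46 and 79, and the low-cycle state, under 3 UMIs of both cycle lists, 564 and 563. Cells past both cycle thresholds counted as G2/M, so the G2/M state is not a single phase. The S list took 0.367% of UMIs in G2/M cells at 2 mM and 0.297% at 0 mM, against 0.401% and 0.404% in S-state cells. Near the G2/M threshold, at it or 1 UMI below, lay 115 cells at 2 mM and 171 at 0 mM. The 37 genes summed to 18266 CPM in G2/M cells and 16286 CPM in low-cycle cells of the 2 mM library, a ratio of 1.12 (1.10 to 1.14). In the 0 mM library the sums were 16829 and 15206 CPM, a ratio of 1.11 (1.09 to 1.12). The median log2 ratio over all genes was 0.06 at 2 mM and 0.08 at 0 mM. G2/M cells were also deeper than low-cycle cells, with medians of 4072 and 2916 UMIs at 2 mM and 3872 and 3621 at 0 mM, and the part of depth in these ratios was not tested.

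In G2/M cells 3 of 36 members compared were called higher at 2 mM, against 13.8% of all genes, and 2 of 37 at 0 mM, against 14.1%. None was called lower, against 8.86% and 8.11%. CYCS and COX8A were called in both libraries. CYCS had 399 CPM in G2/M and 250 CPM in low-cycle cells at 2 mM, a ratio of 1.60 (1.39 to 1.83), whereas at 0 mM 433 and 237 CPM gave a ratio of 1.83 (1.64 to 2.05). COX8A of complex IV had ratios of 1.5 and 1.56. ATP5F1 was the third at 2 mM, at 1.57, and had a ratio of 1.35 at 0 mM. In the other direction UQCRB, ATP5H and ATP5I were among 7 members with ratios below 1 in both libraries, at 0.874, 0.866 and 0.788 at 2 mM and 0.830, 0.951 and 0.844 at 0 mM.

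S-state cells had a sum over that of low-cycle cells of 1.20 (1.16 to 1.24) at 2 mM, from 19609 and 16286 CPM, and of 1.07 (1.04 to 1.10) at 0 mM, from 16210 and 15206 CPM. Of the members, 5 of 36 were called higher at 2 mM, against 16.4% of all genes, and 1 of 37 at 0 mM, against 15.9%. None was called lower, against 13.2% and 10.3%. CYCS was called in both, at 1.80 and 1.61, and ATP5G1 (1.77), ATP5J2 (1.72), UQCRC1 (1.59) and CYC1 (1.59) at 2 mM. With cells thinned to 2000 UMIs, fewer and deeper cells, the log2 ratio of the sum was 0.05 against 0.27 at 2 mM and 0.15 against 0.09 at 0 mM.

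In cells with 3 or more UMIs of interferon-induced genes most members stood at ratios below 1 to the other cells. There were 254 such cells at 2 mM and 424 at 0 mM, with 185 and 204 cells at the threshold or 1 UMI below. The 37 genes summed to 15412 CPM in them and 17938 CPM in the other cells at 2 mM, a ratio of 0.859 (0.844 to 0.875). At 0 mM the sums were 14373 and 16979 CPM, a ratio of 0.846 (0.834 to 0.860). Ratios were below 1 for 32 of 37 members in both libraries. Above 1 were 4 of 36 members compared at 2 mM, against 41.1% of all genes, and 3 of 37 at 0 mM, against 40.0%, beside median log2 ratios of all genes of -0.07 and -0.09. None of 36 members was called lower at 2 mM, against 8.4% of all genes, and 4 of 37 were at 0 mM, against 9.56%. Those 4 were ATP5F1 (0.590), ATP5D (0.623), CYCS (0.649) and ATP5G1 (0.663), chosen by passing the threshold, and their ratios at 2 mM were 0.672, 0.941, 0.678 and 0.714. None was called higher, against 7.72% and 8.3%. UQCRB and ATP5H had ratios above 1 in both libraries, at 1.01 and 1.12 at 2 mM and 1.10 and 1.12 at 0 mM. The interferon cells held 0.225% of UMIs from the G2/M list and 0.102% from the S list at 2 mM, and the other cells 0.387% and 0.215%. Among low-cycle cells alone, an alternative added after the data had been seen, the sum had a ratio of 0.871 (0.852 to 0.891) at 2 mM and 0.852 (0.835 to 0.869) at 0 mM, so it was nearly as far from 1. In that comparison 0 of 36 members were called lower at 2 mM, against 7.06% of all genes, and 6 of 37 at 0 mM, against 7.29%, and 0 were called higher, against 7.86% and 9.11%.

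Cells with 3 or more UMIs of the hypoxia list, 150 at 2 mM and 180 at 0 mM, had a sum near that of the other cells at 2 mM and a smaller one at 0 mM, a difference that was not tested. At 2 mM they had 16887 CPM and the other cells 17114 CPM, a ratio of 0.987 (0.965 to 1.01). At 0 mM they had 14726 and the others 16104 CPM, a ratio of 0.914 (0.896 to 0.934). None of the members was called in either direction in either library, against 2.06% higher and 3.49% lower of all genes at 2 mM and 2.79% and 2.44% at 0 mM. The state is loosely set, with 259 cells at 2 mM and 277 at 0 mM at the threshold or 1 UMI below.

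The cells of both libraries were also clustered together on variable genes without the 37 members. Clusters are numbered, and 3 kinds could be named from markers: cluster 4 was S-like, cluster 6 G2/M-like and clusters 1 and 7 interferon-like. Cluster 4 was not of S phase alone. It took 0.651% of its UMIs from the G2/M list and 0.576% from the S list at 2 mM, and 0.601% and 0.556% at 0 mM. Cluster 0, led by MTRNR2L12 and its relatives, cluster 2, led by ANKRD1 and DKK1, cluster 3, led by SOX4 and DEFB1, and cluster 5, led by ALOX5AP and LCN2, stayed unnamed. Cluster 3 held 259 cells at 2 mM and 1 at 0 mM, and cluster 5 held 182 and 14, so for these the cluster and the library cannot be told apart. Cluster 7 had 7 interferon and 3 G2/M markers among its leading genes, so it was cycling as well by these markers. It held 16 cells at 2 mM and 27 at 0 mM, under 50 of either library, and was left out of the comparisons of clusters. Its sum of the 37 genes was 17776.5 CPM (16944 to 18640) at 2 mM and 14940 CPM (14351 to 15547) at 0 mM.

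The sum of the 37 genes was highest in the S-like cluster 4, with 19496 CPM in 102 cells at 2 mM and 18303 CPM in 119 cells at 0 mM. It was lowest in the interferon-like cluster 1, with 13449 CPM in 138 cells at 2 mM and 13310 CPM in 248 cells at 0 mM. The G2/M-like cluster 6 had 18052 and 17014 CPM, cluster 2 had 16762 and 16440 CPM, and cluster 0 had 15541 and 15732 CPM. Clusters 3 and 5, nearly all of the 2 mM library, had 17250 and 17133 CPM, whose intervals overlapped. Median depth was 4380 UMIs at 2 mM and 5179 at 0 mM in cluster 4, 2733 and 3628 in cluster 1, and 1224 and 2169 in cluster 0. The part of depth in the order of clusters was not tested.

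**Figure D4:**
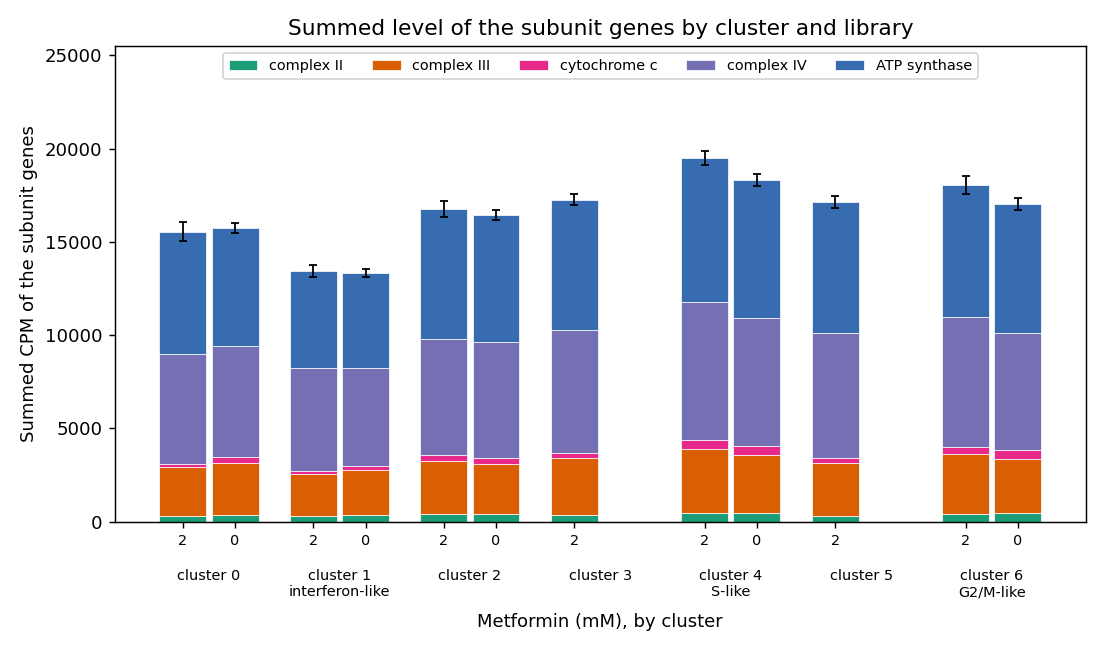
Summed CPM of the 37 genes by cluster and metformin dose, stacked by complex, for clusters with at least 50 cells of the library; bars start at 0 and the error bar is the 95% counting interval of the whole sum. The S-like cluster 4 is highest at 19496 CPM at 2 mM against 18303 CPM at 0 mM and the interferon-like cluster 1 lowest at 13449 and 13310 CPM.

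Cluster 4 over cluster 1 gave a ratio of the sum of 1.45 (1.41 to 1.5) at 2 mM and 1.38 (1.34 to 1.41) at 0 mM. A ratio above 1 was found for 35 of 36 members compared at 2 mM, against 59.1% of all genes, and for 34 of 37 at 0 mM, against 57.7%. The median log2 ratio was 0.55 over the members and 0.16 over all genes at 2 mM, and 0.49 and 0.14 at 0 mM. Of the members, 17 of 36 were called higher at 2 mM, against 27.8% of all genes, and 14 of 37 at 0 mM, against 26.1%. Both libraries called 11 of them: UQCRFS1, CYCS, COX5A, COX7B, COX8A, ATP5A1, ATP5F1, ATP5G1, ATP5G3, ATP5J and ATP5J2. None was called lower, against 17.1% of all genes at 2 mM and 18.4% at 0 mM.

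ATP5G1, the subunit c gene with the smallest level over all cells of each library, had the highest ratio of the members in both libraries. It had 447 CPM in cluster 4 and 143 CPM in cluster 1 at 2 mM, a ratio of 3.12 (2.38 to 4.13), whereas at 0 mM 422 and 157 CPM gave a ratio of 2.69 (2.22 to 3.26). ATP5G3 had ratios of 1.61 and 2.11, and ATP5G2 of 1.09 and 1.40, so the order ATP5G1, ATP5G3, ATP5G2 held in both libraries. CYCS followed with 2.61 (2.05 to 3.36) at 2 mM and 2.46 (2.07 to 2.93) at 0 mM. At the other end, ATP5I had 0.831 and 0.953, UQCRB 1.0 and 0.856, and ATP5H 1.07 and 0.862. COX7C and COX4I1, among the most abundant genes of complex IV, had ratios of 1.16 and 1.12 at 2 mM and 1.12 and 1.07 at 0 mM. By complex, the ratio of the sum was 1.36 at 2 mM and 1.32 at 0 mM for complex II, 1.55 and 1.28 for complex III, 1.35 and 1.31 for complex IV, and 1.47 and 1.45 for the ATP synthase.

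The G2/M-like cluster 6 over cluster 1 gave a ratio of the sum of 1.34 at 2 mM and 1.28 at 0 mM. Of 36 members compared in each library, 15 were called higher at 2 mM, against 23% of all genes, and 10 at 0 mM, against 24.1%. UQCRFS1, CYCS, COX8A, ATP5A1, ATP5B and ATP5F1 were called in both, and none was called lower, against 17.6% and 18.2%. Set against cluster 2, which is neither interferon-like nor cycling by its leading genes, the S-like cluster 4 had a ratio of 1.16 at 2 mM and 1.11 at 0 mM. Called higher were 4 of 37 members in each library, against 18.1% and 20.8% of all genes, with CYCS, COX5A and COX8A in both, UQCRFS1 (1.51) at 2 mM and ATP5G1 (1.65) at 0 mM. SDHC was called lower at 2 mM, at 0.612, 1 of 37 against 10.4%, and 0 were lower at 0 mM, against 10.9%. This call of SDHC rests on 25 UMIs in each cluster, and its interval of 0.337 to 1.11 included 1.

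**Figure D5:**
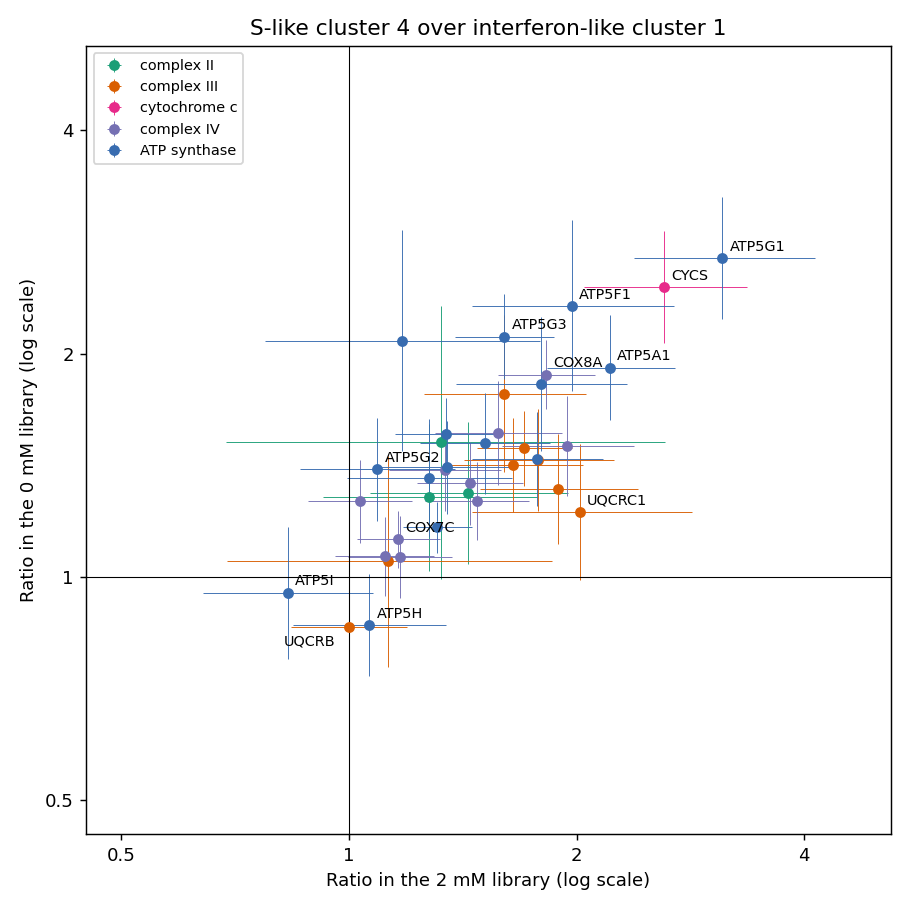
Ratio of CPM in the S-like cluster 4 over the interferon-like cluster 1 for each of the 37 genes, in the 2 mM library on the x axis and in the 0 mM library on the y axis, both on log scales, coloured by complex, with 95% counting intervals. ATP5G1 (3.12 and 2.69) and CYCS (2.61 and 2.46) lie furthest to the upper right, while ATP5I lies below 1 on both axes.

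Within 3 of 5 clusters the interval of the summed ratio between the doses included 1. The ratio of the sum at 2 mM over 0 mM was 0.988 (0.953 to 1.02) in cluster 0, 1.01 (0.981 to 1.04) in cluster 1 and 1.02 (0.988 to 1.05) in cluster 2. It was 1.07 (1.04 to 1.09) in cluster 4 and 1.06 (1.03 to 1.10) in cluster 6. Of the members, 1 of 36 was called higher in cluster 0, against 11.9% of all genes, 4 of 36 in cluster 1, against 9.94% (UQCRFS1, ATP5D, ATP5F1 and ATP5G3), 0 of 37 in cluster 2, against 10.7%, 1 of 37 in cluster 4, against 9.54%, and 0 of 36 in cluster 6, against 8.93%. Called lower were 5 in cluster 0, against 15.2%, 1 in cluster 1, against 8.77%, 0 in cluster 2, against 7.13%, 0 in cluster 4, against 7.21%, and 1 in cluster 6, against 11.3%.

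Some genes kept their side of 1 in all 5 clusters. UQCRFS1 had the highest ratio of the members compared in clusters 0, 1, 4 and 6, at 1.67, 1.84, 1.68 and 1.41, and 1.09 in cluster 2. Of the 36 members compared in all 5 clusters, 9 were above 1 in every one (UQCRFS1, COX4I1, COX5B, COX7A2, COX7B, ATP5A1, ATP5G3, ATP5J and ATP5J2), against 12.6% of the 2968 genes so compared. Below 1 in every cluster were 5 of the 36 (SDHA, UQCRC1, CYCS, ATP5G2 and ATP5L), against 11.8%. UQCRC1 was called lower in clusters 0 and 1, at 0.638 and 0.593, and ATP5G2 in cluster 6, at 0.661. SDHA, UQCRC2, UQCRH and CYCS were the others called lower in cluster 0, where the 2 mM cells had a median of 1224 UMIs against 2169 at 0 mM.

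Across the states the ratio of the sum at 2 mM over 0 mM was 1.09 in G2/M cells, 1.07 in low-cycle cells, 1.07 in interferon cells and 1.06 in cells with few interferon transcripts. It was 1.15 (1.12 to 1.18) in hypoxia-state cells and 1.06 (1.05 to 1.08) in the others. In hypoxia-state cells 5 of 37 members were called higher, against 9.92% of all genes: COX7B (1.81), ATP5I (1.61), ATP5A1 (1.53), UQCRFS1 (1.53) and ATP5G3 (1.51). SDHC was called lower there at 0.621, against 11.4% of all genes, from 22 UMIs at 2 mM and 44 at 0 mM. Its interval of 0.354 to 1.06 included 1. In G2/M cells UQCRFS1 was called higher at 1.56, 1 of 37 members against 7.71%, and in interferon cells UQCRFS1 (1.62) and ATP5D (1.5), 2 of 36 members against 7.44%. No member was called higher in the other 3 of these 6 states, against 6.76% of all genes in low-cycle cells, 6.33% in cells with few interferon and 5.37% in cells with few hypoxia transcripts, although ATP5G3 lay just under the threshold in low-cycle cells. Called lower were 0 members in these 3 states, against 3.56%, 4.53% and 3.39% of all genes, and 0 in G2/M and interferon cells, against 5.45% and 4.43%. Low-cycle cells were also divided by interferon transcripts, an alternative added after the data had been seen. Among the 206 at 2 mM and 285 at 0 mM with 3 or more, 4 of 36 members were called higher, against 8.94% of all genes: ATP5D (1.96), UQCRFS1 (1.80), ATP5A1 (1.62) and ATP5G3 (1.56). In those with fewer, 0 of 37 were called higher, against 8.28%, and in both 0 were called lower, against 5.61% and 4.34%.

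The partners made from mitochondrial DNA summed to 27162 CPM at 2 mM against 25896 CPM at 0 mM, a ratio of 1.05 (1.04 to 1.06). MT-CYB, the cytochrome b of complex III, had a ratio of 0.832 (0.812 to 0.853). In complex IV, MT-CO1 had 1.23, from 6757 CPM at 2 mM against 5483 CPM at 0 mM, MT-CO2 1.0 (0.984 to 1.02) and MT-CO3 1.11 (1.09 to 1.13). For the ATP synthase, MT-ATP8 had 1.48 (1.39 to 1.58), with 616 CPM at 2 mM against 416 CPM at 0 mM, and MT-ATP6 0.881 (0.859 to 0.903), with 3163 and 3590 CPM. MT-ATP8 and MT-ATP6 overlap and are known to be carried by a common messenger, so their counts are uncertain. The nuclear genes of complex I summed to 7385 CPM at 2 mM against 6703 CPM at 0 mM, a ratio of 1.10 (1.08 to 1.12). Of these, 22 of 34 were above 1, next to 21 of 37 here and 52.6% of all genes.

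Of 60 other genes of the pathway analysed, 33 passed the minimum, and 16 of these had ratios above 1, against 52.6% of all genes. None was called higher, against 5.04% of all genes, or lower, against 3.31%. The 3 highest besides the mitochondrial genes were COX14, an assembly factor of complex IV, at 1.40 (1.21 to 1.61), TTC19, which clears fragments of the Rieske protein from complex III, at 1.39 (1.19 to 1.63), and LRPPRC, which stabilises mitochondrial messengers, at 1.36 (1.16 to 1.58). The 3 lowest were COX7A2L, a factor for joining complexes III and IV, at 0.764 (0.687 to 0.849), SDHAF2, which attaches flavin to SDHA, at 0.778 (0.658 to 0.918), and OXA1L, which inserts proteins into the inner membrane, at 0.813 (0.673 to 0.980). COX7A2L is a relative of COX7A2, and the pair stood at 168 and 599.5 CPM at 2 mM and 220 and 571 CPM at 0 mM. Of the 20 assembly genes compared 11 had ratios above 1, and of the 4 further subunits and inhibitors none, against 52.6% of all genes. The tissue-specific isoforms COX6B2 and COX7B2 had 1 and 3 UMIs at 2 mM and 0 and 2 at 0 mM.

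Counts of several members are uncertain because of near copies. In the GENCODE annotation 26 of the 37 genes had at least 1 processed pseudogene named after them, 138 in all, with 40 for CYCS and 17 for COX6C. How reads that match both a gene and its copy were counted is not given in the sources used here. Among the genes named most above, SDHA, SDHB, UQCRC1, UQCRQ, ATP5G3, ATP5I and COX8A had none, while ATP5A1 and ATP5G1 had 7 each and UQCRFS1 had 3.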

How the data were processed

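The authors deposited whole-number UMI counts per gene and barcode. Per the submitters' processing notes, bcl2fastq, STAR 2.5.0a and hg19 were used. How barcodes were chosen, UMIs collapsed and strand handled is not given in the sources used here. All 2000 barcodes named a library, and 0 columns belonged to no sample. A barcode counted as a cell from 500 UMIs and 300 genes on, and no doublet caller was run, so doublets of cells in unlike states were not removed. Counts were summed per library, cluster or state and scaled to CPM. Levels have exact Poisson, ratios exact conditional Clopper-Pearson and shares exact binomial intervals at 95%. The interval of the median log2 ratio came from the order of the members' ratios. A floor of 3 counts is 0.919 CPM at 2 mM and 0.681 CPM at 0 mM.

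Genes at 50 CPM in either library and 50 UMIs over both were compared, and at least 1.5-fold was called. For shares and states, cells were thinned to 1000 UMIs. Clusters came from 2000 variable genes without the members, 20 principal components, 15 neighbours and Leiden resolution 0.5, and were named with at least 3 markers among 50 leading genes. Given in full are, per complex, the members of highest and lowest level and ratio, then the 3 highest and 3 lowest other pathway genes, the mitochondrially encoded partners and the paralogues. Other named genes were chosen after their values were seen. The members and lists were chosen with earlier results of these data known. SDHD and UQCR11 were not analysed here. Scaling, cell filters, minimum, threshold, thinning, state threshold and resolution were varied. The interval code was tested on simulated data. Python 3.11.15, numpy 2.4.6, scipy 1.17.1, pandas 2.3.3, scikit-learn 1.9.0, leidenalg 0.10.2, matplotlib 3.10.9 and, for TMM factors on the deposited counts, edgeR 4.0.16 were used.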

Additional observations from a re-analysis of the deposited data

Results flagged for a closer look

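COX8A had a ratio of 2 mM over 0 mM of 1.11 in cells with 3 or more interferon transcripts and of 0.921 in the other cells, with counting intervals on opposite sides of 1. The difference between these ratios was not tested, since each dose has 1 library. Among low-cycle cells alone the ratio of COX8A was 1.05 (0.934 to 1.17) with 3 or more interferon transcripts and 0.994 (0.902 to 1.09) with fewer. Both of these intervals included 1. The flag came from a search over all members and many pairs of cell groups, which was not corrected for its size.

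The sum of complex III had a ratio of 0.925 in the interferon-like cluster 1, against 1.12 in the S-like cluster 4 and 1.1 in the G2/M-like cluster 6, again with intervals on opposite sides of 1. These differences were not tested either. Among the subunits, UQCRC1 had a ratio of 0.593 in cluster 1 and 0.978 in cluster 4, while UQCRFS1 had 1.84 and 1.68.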

How the results depend on the processing

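No paired analysis was possible because each dose has 1 library. Sums and members below are log2 ratios of 2 mM over 0 mM. With TMM factors the sum of complex III came to -0.0019, complex IV to 0.033, the ATP synthase to 0.020 and all 37 genes to 0.011. Centred on the median of all genes the sum of all 37 was 0.078. UQCRFS1 was called higher, as 1 member, with the deepest 5% of barcodes left out, against 5.83% of all genes, and with every cell weighted equally, against 6.49%, where the ATP synthase stood at 0.14. Thinned to 1000 UMIs, 3 of 36 members were called higher (UQCRFS1, ATP5D and ATP5G3), against 9.25% of all genes, and complex III stood at 0.14, complex IV at 0.15, the ATP synthase at 0.17 and all 37 genes at 0.15. At a ratio of at least 5 to 4, 4 members were higher and 1 lower. The summed G2/M over low-cycle ratio at 0 mM was 0.18 both at 2 or more UMIs of the list and at 2000 UMIs per cell. The S over low-cycle ratio at 2 mM was 0.16 at 2 or more UMIs and 0.053 at 2000 UMIs per cell, and at 0 mM 0.15 both at 5 or more UMIs and at 2000 UMIs per cell. At 2 or more UMIs the interferon ratio was -0.18 at 2 mM and -0.20 at 0 mM, and the hypoxia ratio at 0 mM -0.10. Thinned to 2000 UMIs, 19 members at 2 mM and 17 at 0 mM were found in at least 50% of cells, against 6 and 2 at 1000 UMIs. At clustering resolution 1, the highest over the lowest cluster at 0 mM was a ratio of 1.73 against 1.38. Of the 37 members, 16 stayed above 1 and 11 below 1 in every setting tried, and 10 took both signs. No member's ratio of 2 mM over 0 mM passed 1.5-fold on one side in 1 setting and on the other side in another. SDHC did so at 5 to 4, with a log2 ratio of -0.40 in the main setting and 0.35 in thinned cells, where its interval included 0. Apart from the construction of each setting, the cause of these shifts was not tested. With 1 library per dose, culture, library and metformin cannot be told apart, and intervals cover counting error only.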

Other observations

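The co-activators PPARGC1A and PPRC1, which are known to switch on nuclear genes of the respiratory chain, lay below the minimum of 50 CPM. PPARGC1A had 39 UMIs at 2 mM and 29 at 0 mM, and PPRC1 56 and 32, although the 2 mM library was the smaller one. Of the factors that bind the promoter letters searched, NRF1 had 17 UMIs at 2 mM and 27 at 0 mM, GABPA 33 and 63, its partner GABPB1 74 and 92, and ESRRA, which encodes ERRalpha, 119 and 117. These 4 lay below that minimum as well, and the ratio of CPM for ESRRA was 1.37 (1.05 to 1.79). YY1 passed the minimum at 218 CPM at 2 mM against 239.8 CPM at 0 mM, a ratio of 0.907 (0.823 to 0.998), and TFAM, which packs and transcribes mitochondrial DNA, at 136 and 124 CPM, a ratio of 1.09 (0.960 to 1.24).

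NDUFA4, long counted to complex I and now to complex IV, had 753 CPM at 2 mM against 770 CPM at 0 mM, and ATPIF1, the inhibitor that stops the ATP synthase from running backwards, 492 and 504 CPM. The intervals of both ratios included 1.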
